A study of Danio rerio with 9 samples.

Results

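The comparison was between gastrula-stage zebrafish embryos exposed to 20 µg/L pentachlorophenol, the lower of 2 doses in the series, and embryos kept in deionized water. It rested on the 6 arrays that carry those 2 treatment labels, 3 per group, of the 9 arrays in the series. Their values entered as log2(signal + 1) for all 15502 probe sets that are not controls of the manufacturer. The arrays were taken by their labels, and all of these probe sets were kept without a filter on measured values. The comparison and the gene lists were chosen with earlier results of these data known. Some genes were named after their values were seen. Replicate 3 of the exposed group is also given apart from replicates 1 and 2.

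Pentachlorophenol is a chlorinated phenol used as a wood preservative and biocide. It is known as an uncoupler, a compound that carries protons across the inner mitochondrial membrane, so that respiration runs without making ATP. Cells short of mitochondrial ATP or of oxygen commonly draw on glycolysis, and many glycolytic genes are targets of hypoxia-inducible factors, transcription factors that prolyl hydroxylases mark for degradation when oxygen is present. In the early zebrafish embryo, transcripts supplied by the oocyte are cleared while the embryo's own genome is switched on, and gastrulation then shapes the germ layers under Nodal, BMP and other signals.

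All embryos were wild type of the Tuebingen strain and were taken whole. Timed egg collections went into the test solutions, and those that had reached gastrulation, roughly 8 h after fertilisation, were picked by eye. The groups were 20 µg/L pentachlorophenol, deionized water without the compound, and 50 µg/L pentachlorophenol, which serves here only for reference, each with 3 arrays called biological replicates. The labels give neither the number of embryos in a sample nor separate clutches, so the tests measure only the spread between these samples. Whole embryos also mean that fewer cells of a type and less RNA per cell cannot be told apart. The 3 values set side by side for a group stand for replicates 1, 2 and 3 in that order, and they are signals on a linear scale. A log2 difference is the mean of log2(signal + 1) at 20 µg/L minus that in water, unless both doses are named.

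Median signals lay between 97.9 and 151.9 over the 9 arrays, and each array was scaled to nearly the same trimmed mean. A tag control level was set on each array to mark dim probe sets, as the 95th percentile of 17 controls on the chip that match no transcript, and it was 56.9, 66.5 and 82.6 in the exposed group and 50.6, 54.5 and 113.8 in water. Water replicate 3 stood apart, with a median Spearman correlation of 0.869 with the other arrays against 0.912 to 0.929 for the rest. Exposed replicate 3 correlated best with replicate 3 of the 50 µg/L group (Spearman 0.946, the highest of all 36 pairs of arrays). It correlated at 0.939 and 0.923 with exposed replicates 1 and 2, which correlated at 0.938 with each other. By this measure exposed replicate 3 did not stand apart from its group. Arrays numbered 3 were exported with more decimals than the others in all groups. The labelled stage was checked against markers. Of 20 gastrula markers, 17 were above the tag control level on all 6 arrays. Among the bright ones were the enveloping layer keratin gene krt4 (23451, 20244 and 20489 in water, 18631, 23523 and 20245 at 20 µg/L), the mesoderm gene tbxta (2009, 3422 and 1534, then 2720.4, 2140.4 and 2369) and the presomitic mesoderm gene msgn1 (8167, 9381 and 6736, then 6677, 8682 and 8414). Of 13 markers of later stages, myl7 of heart muscle, hbbe3 of red cells, gfap of glia and pvalb2 of muscle were under the tag control level on all 6 arrays. Another 2 of the 13, actc1b and crestin, were above it on all 6. Others, among them neurod1, mitfa, tnnt3a and ckma, were above it on only some of the 6. Relative to the mean of the water arrays, water replicate 3 had a median of -0.36 over the gastrula markers and 0.90 over the later ones. Water replicates 1 and 2 had 0.06 and -0.01 over the gastrula markers and -0.37 and -0.07 over the later ones. The later markers were mostly dim. Their median signal on water replicate 3 was itself under the tag control level of that array, the highest of all arrays. With values under the tag control level raised to it, the median log2 difference of the later markers went from -0.33 to -0.004.

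No probe set passed the test between 20 µg/L and water. In limma's fit over all 9 arrays, 0 of 15502 probe sets had a Benjamini-Hochberg adjusted p under 0.05 (0.0% called). The lowest adjusted p was 0.509, for a probe set of polr2a, which encodes the largest subunit of RNA polymerase II. At an unadjusted p under 0.05, 1138 probe sets differed (7.34%), 497 higher (3.21%) and 641 lower (4.13%). The 3 exposed arrays were all above the 3 water arrays for 663 probe sets (4.28%) and all below them for 1222 (7.88%). Of the 663, 334 (50.4%) had water replicate 3 as the lowest array, and of the 1222, 622 (50.9%) had it as the highest. Over all probe sets, water replicate 3 was the lowest of the 3 water arrays for 31.1% and the highest for 43.1%. Of the 1222, 590 were under the tag control level on all 3 exposed arrays. Without water replicate 3 the number of calls stayed at 0, it was 3 without exposed replicate 3, and it was 1 without water replicate 2 (cd2bp2, higher).

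The 0 calls depended on how dim values in the table were treated. With every value under the tag control level set to that level, called flooring below, 60 probe sets were called (0.387%), 54 higher and 6 lower. Of the 54, 40 were above the tag control level on all 6 arrays, so that flooring left their own 6 values as they were. Their calls also rest on the spread that limma's fit shares between probe sets, which flooring changed. Water replicate 3 was the lowest of the 6 arrays for 46 of the 54. With water replicate 3 also left out, 40 were called, 20 of them among the 60. With exposed replicate 3 left out instead, 134 were called, 46 of them among the 60. The probe set of polr2a was called in each of these 3 fits. Its signals were 543, 552 and 287 in water and 1754, 1700.0 and 1211 at 20 µg/L, with every exposed array above every water array, and the log2 difference was 1.79 (SE 0.30). A second probe set of polr2a read 264, 182 and 252 in water and 486, 570.1 and 549 at 20 µg/L, and one more did not separate the groups.

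Of the 15 genes that stood furthest above water without overlap between the groups, none passed the test with values as deposited. The cohesin subunit gene smc1al had signals of 144, 162 and 25.1 in water and 614, 426 and 1412 at 20 µg/L, a log2 difference of 3.08 (SE 0.66, limma adjusted p = 0.559). The topoisomerase gene top1a read 550.4, 75.9 and 141 and then 888, 865 and 666, a difference of 2.14 (adjusted p = 0.64). Signals of leo1, of a complex that travels with RNA polymerase II, were 79.9, 83.2 and 14.4 and then 318, 289 and 198. The histone chaperone gene ssrp1a, the chromosomal passenger gene incenp, and acin1a and gpkow, whose products associate with splicing, were also among the 15. The remaining members were impdh1b of guanine nucleotide synthesis, the claudin gene cldng, the phosphatase gene ppm1ba, the poly(A)-binding protein gene pabpc1a, the kinase gene tnikb, abcf1 of translation, and the hydroxylase genes egln3 and p4ha1b described below. After flooring, smc1al, cldng, pabpc1a and top1a were called, and also without water replicate 3 and without exposed replicate 3. Calls of leo1, ppm1ba, abcf1, ssrp1a, egln3 and p4ha1b after flooring were lost without the one array, the other, or either. The genes impdh1b, acin1a, tnikb, incenp and gpkow were not called after flooring.

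Water replicate 3 was the lowest of the 6 arrays for 10 of these 15 genes. For pabpc1a it read 265 against 3680 and 1960 in the other water arrays, while the exposed arrays read 8174, 5225 and 5455. The log2 difference of pabpc1a was 2.31 with all arrays and 1.196 without water replicate 3. That of ppm1ba went from 2.36 to 0.90, and that of ssrp1a from 2.01 to 1.05. For smc1al, impdh1b, top1a, egln3 and p4ha1b the differences without it were 2.23, 2.65, 1.96, 2.38 and 2.03. Without water replicate 3, the fold differences of 7 of the 15 genes were smaller by over 1.5 times. Other probe sets of these genes differed from those named. Above the tag control level on at least 1 array there were 21 such probe sets for 12 of the genes, of which 17 were higher on average and 3 had an unadjusted p under 0.05, with a median log2 difference of 0.23. A probe set of abcf1 read 3375, 2557 and 3724 in water and 3299, 3230.3 and 2544 at 20 µg/L.

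**Figure D1:**
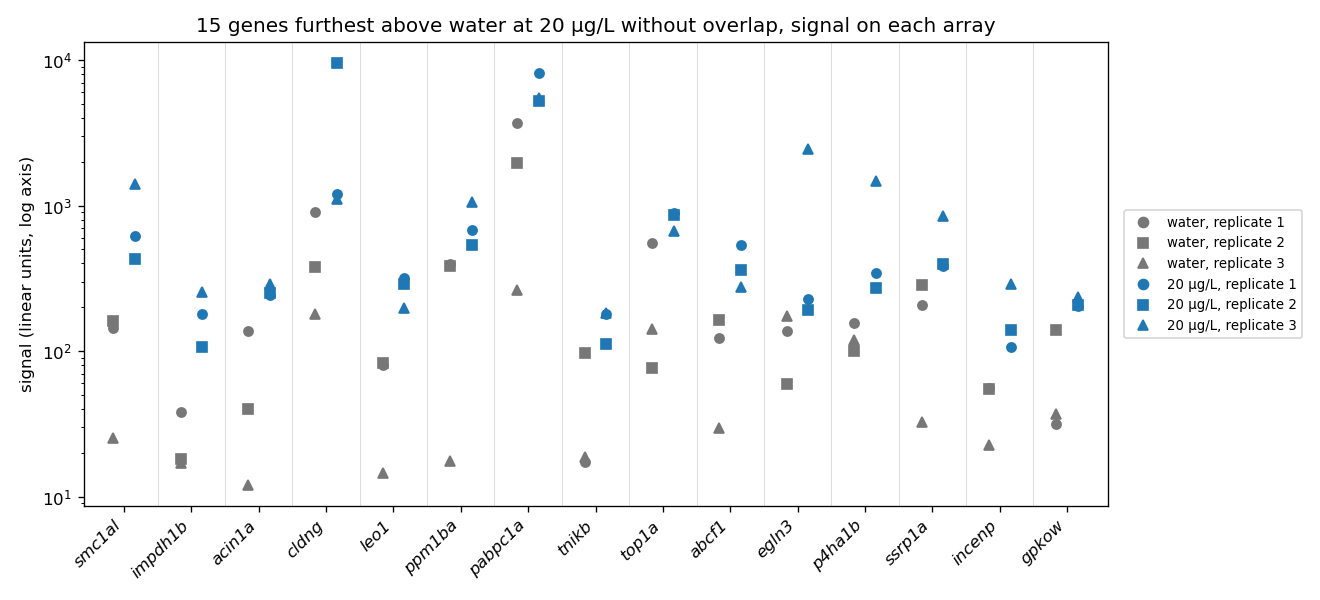
Signal on each array (log axis) for the 15 genes furthest above water, in the order of their log2 difference, with grey points for the 3 water arrays and blue points for the 3 arrays at 20 µg/L. Circles, squares and triangles are replicates 1, 2 and 3. In 10 of the 15 genes the grey triangle is the lowest point, and the blue triangles of egln3 and p4ha1b lie well above the other blue points.

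The genes of this paragraph were named after their values were seen, from the probe sets called after flooring. Among the 54 higher ones were the chromatin remodeller genes smarca4a and smarca5, the HMG-box genes hmgb2a, hmgb2b and hmgb3a, the DNA methyltransferase gene dnmt3ba, and nop58 and ddx18 of the nucleolus. Signals of smarca4a were 1211, 680.5 and 122 in water and 1234, 1387 and 1477 at 20 µg/L, and those of nop58 were 2532, 3479.6 and 210.4 and then 4199, 4276 and 5400.0. In both, water replicate 3 was far below the other water arrays. The calls of smarca4a, smarca5, hmgb2a, hmgb2b, hmgb3a, dnmt3ba, nop58 and ddx18 were all lost after flooring without that array (adjusted p from 0.247 for nop58 to 0.823 for hmgb2a), and that of dnmt3ba also without exposed replicate 3 (0.216). Calls that were also made without water replicate 3 and without exposed replicate 3 included rad23b of DNA repair, cnot1 of mRNA deadenylation, paip2b, which binds poly(A)-binding protein, and cd2bp2 of the spliceosome. The gene rad23b read 296, 72.1 and 106 and then 741, 756 and 240.0, and cnot1 read 1082, 377 and 1021 and then 2709.7, 2316 and 1380.0. The exposed arrays of cnot1 were all above water, and replicate 3 of rad23b fell inside the water range. For cd2bp2, 218, 773 and 185 in water stood beside 999, 1009 and 1120.0 at 20 µg/L, a log2 difference of 1.72 (adjusted p = 0.605 with values as deposited and 0.00537 after flooring). Among the 6 lower ones, the splicing regulator gene ptbp1a read 2985, 2596 and 3956 and then 1034, 454 and 2638 (-1.54, adjusted p = 0.00911 after flooring), with replicate 3 within reach of the water arrays and replicates 1 and 2 far below.

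Genes that stood furthest below water were dim. Of the 15 named by the same rule, 13 were under the tag control level on all 3 exposed arrays, among them the transcription regulator genes lmo3 and evx1 and the chaperone gene dnajc3a. The gene lmo3 read 121, 65.4 and 114 in water and 32.8, 18.4 and 9.21 at 20 µg/L. Its log2 difference of -2.37 shrank to -0.50 after flooring. Signals of mllt1a, of a transcription elongation complex, were 147, 171 and 159.6 and then 48.3, 30.4 and 71.9, and its difference went from -1.73 to -1.22 in the same way. For the 15 genes together the differences after flooring lay between -1.22 and -0.27. Brighter probe sets with lower signal after exposure are described with their pathways below.

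Ribosome biogenesis was the list with the most genes higher after exposure. It holds genes that make and assemble ribosomal subunits in the nucleolus. Of its 69 genes, 13 were higher and 2 lower at an unadjusted p under 0.05, against 2.93% and 4.44% of all 8793 genes, and 0 passed after adjustment. The exposed arrays were all above water for 15 genes and all below for 3, against 4.37% and 7.99% of all genes. These shares of all genes are also those to set beside the counts of the lists below. The helicase gene ddx21 read 2006, 2240.0 and 1815 in water and 4330.0, 4412 and 3583 at 20 µg/L, a log2 difference of 1.02 (SE 0.25, limma adjusted p = 0.605). Every exposed array was above every water array, by a wide gap. For mphosph10, a component of the processome that cuts the ribosomal RNA precursor, signals were 754, 526 and 281 and then 1229, 1471 and 1431 (log2 difference 1.51, adjusted p = 0.559). The small-subunit factor gene nop14 read 1177, 1084 and 1164 and then 2164, 1809.7 and 1841, and the large-subunit factor gene rrp15 read 1491, 2592 and 604 and then 3189.5, 3868 and 3071. The log2 difference of rrp15 was 1.34 with all arrays and 0.77 without water replicate 3, and those of ddx21, mphosph10 and nop14 without it were 0.95, 1.12 and 0.77. Lower signals were found for nol10 (1305, 841 and 1725, then 766, 746 and 562) and pwp2h (1160.3, 1669 and 1459, then 974, 894 and 928), 2 further processome genes.

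The median log2 difference of the ribosome biogenesis list was 0.22, beside -0.10 over all genes. Without water replicate 3, 7 genes were higher and 1 lower at an unadjusted p under 0.05, and the median was 0.12. Without exposed replicate 3, 9 were higher and 1 lower, with a median of 0.26. Of all genes, 3.25% were higher and 3.95% lower without water replicate 3. The shares were 2.15% and 5.48% without exposed replicate 3. At 50 µg/L the list median was -0.13, with 0 genes called higher and 2 called lower, beside 1.9% and 0.455% of all genes. Water replicate 3 was the lowest array of its group for this list, at -0.16 relative to the mean of the water arrays, against 0.17 and 0.08 for water replicates 1 and 2. Its part in the differences was not tested. After flooring, mphosph10 and rrp15 were called higher (adjusted p = 0.0093 and 0.0232), and both calls were lost without water replicate 3 (0.0643 and 0.247).

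Several genes of the hypoxia response were high in exposed replicate 3 and near the water level in replicates 1 and 2. The gene egln3, which encodes one of the prolyl hydroxylases that mark hypoxia-inducible factors, had signals of 138, 59.5 and 173 in water and 228, 193 and 2449 at 20 µg/L. Replicate 3 was about level with the lowest of the 50 µg/L arrays, which read 5966, 5991 and 2147, while replicates 1 and 2 were just above the highest water array. The log2 difference from water was 2.07 (SE 0.76, limma adjusted p = 0.64), and 0.89 without exposed replicate 3. The collagen prolyl hydroxylase subunit gene p4ha1b read 155, 100.3 and 119 in water, 341, 270.0 and 1468 at 20 µg/L and 2076, 1820.0 and 1528 at 50 µg/L. Here all 3 exposed arrays were clear of water, replicates 1 and 2 by less than replicate 3. Its log2 difference was 2.06 (SE 0.48, adjusted p = 0.605), and 1.30 without exposed replicate 3. After flooring, egln3 and p4ha1b were called higher (adjusted p = 0.00487 and 0.000575), and both calls were lost without exposed replicate 3 (0.536 and 0.0785). Flooring left the signals and log2 differences of both genes as they were, while the SEs went to 0.42 and 0.37. These calls thus rest on the changed spread shared between probe sets, not on closer replicates of these genes.

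Other targets of the hypoxia response showed the same split between replicates. The lysyl hydroxylase gene plod1a read 316, 99 and 184 in water and 279, 276 and 1281 at 20 µg/L, so that replicates 1 and 2 lay within the water range. Signals of igfbp1a, whose product binds insulin-like growth factors, were 476, 194 and 153 and then 124, 119 and 984. There replicates 1 and 2 were below all water arrays and replicate 3 above them. The TOR inhibitor gene ddit4 read 182, 98 and 54.8 and then 104, 93.9 and 418, and the carbonic anhydrase gene ca9 read 337, 252 and 71.6 and then 234, 208 and 771. By contrast, hif1al, of the hypoxia-inducible factor alpha family, was higher by a small step on all 3 exposed arrays (1963, 2168 and 2309, then 3182, 2823 and 3258, log2 difference 0.52, SE 0.22, adjusted p = 0.66). The factor genes hif1ab (2302, 2381 and 2637, then 3538, 2305 and 2032) and epas1a (615, 586 and 665, then 499, 599 and 848) overlapped between the groups. The target gene vegfaa was under the tag control level on all 9 arrays.

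Of the 27 hypoxia response genes, 5 were higher and 0 lower at an unadjusted p under 0.05, against 2.93% and 4.44% of all genes. After adjustment 0 passed. The 5 were p4ha1b, egln3, plod1a, hif1al and pfkfb3, the last dim in water. The list median was 0.47, beside -0.10 over all genes, and 0.05 without exposed replicate 3. In that fit 1 gene was higher, beside 2.15% of all genes. On the exposed arrays singly, relative to the mean of the water arrays, the list medians were 0.27, 0.35 and 0.80, and all 3 exceeded the 3 water arrays (-0.01, -0.14 and 0.13). Exposed replicate 3 was above all 5 other arrays of both groups for 14 of the 27 genes and below them for 3, against 16.8% and 15.3% of all genes.

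Several glycolysis genes had the same order, with replicate 3 alone high. The gene gapdhs, for a glyceraldehyde-3-phosphate dehydrogenase, read 87.8, 118 and 175 in water and 143, 168 and 2575 at 20 µg/L. Replicates 1 and 2 lay inside the water range and replicate 3 was far above it, yet below the 50 µg/L arrays (7679.8, 4782 and 3716). The log2 difference was 1.69 (SE 0.78, limma adjusted p = 0.678) with all arrays and 0.34 without replicate 3. After flooring, gapdhs was called higher (adjusted p = 0.0414), a call lost without exposed replicate 3 (0.877). Enolase gene eno1a read 152, 239 and 111 and then 215, 141 and 856, and phosphoglycerate kinase gene pgk1 read 61.2, 101 and 97 and then 66.8, 44.3 and 416. For pgk1, replicate 2 was the lowest of the 6 arrays and replicate 3 the highest. Lactate dehydrogenase gene ldha read 20.0, 61.5 and 107 and then 37.9, 65.5 and 325, and phosphoglycerate mutase gene pgam1a read 172, 273 and 296 and then 181, 165 and 797. For the lactate transporter gene slc16a3b, 169, 486 and 338 in water stood beside 447, 274 and 838 at 20 µg/L, with replicate 3 again the highest. Hexokinase gene hk1 overlapped between the groups (769.6, 854 and 698, then 770.4, 938 and 857), and the main gapdh gene was lower (11460.0, 7929 and 7489, then 6950.4, 6797 and 4822, log2 difference -0.53, adjusted p = 0.707).

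Of the 38 genes of glycolysis and glucose uptake, 3 were higher (ldhbb, pfkfb3 and gapdhs) and 1 lower (aldoab) at an unadjusted p under 0.05, and 0 passed after adjustment. Of these, aldoab, ldhbb and pfkfb3 were under the tag control level on most of the 6 arrays. The list median was 0.20, and 0.02 without replicate 3. At 50 µg/L, 10 genes of the list were called higher than water, beside 1.9% of all genes, and the list median was 0.52. Exposed replicate 3 was above replicates 1 and 2 for all 10 of them, by log2 gaps from 0.64 to 4.04, beside 43.8% of all probe sets, and reached the range of the 50 µg/L arrays for 3. Neither replicate 1 nor replicate 2 reached it for any of the 10. The 5 hypoxia response genes called higher at 50 µg/L lay likewise, with replicate 3 above the other exposed arrays for all 5 and within the 50 µg/L range for 4. Of these 5, pfkfb3 and ldha are also among the 10 glycolysis genes.

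**Figure D2:**
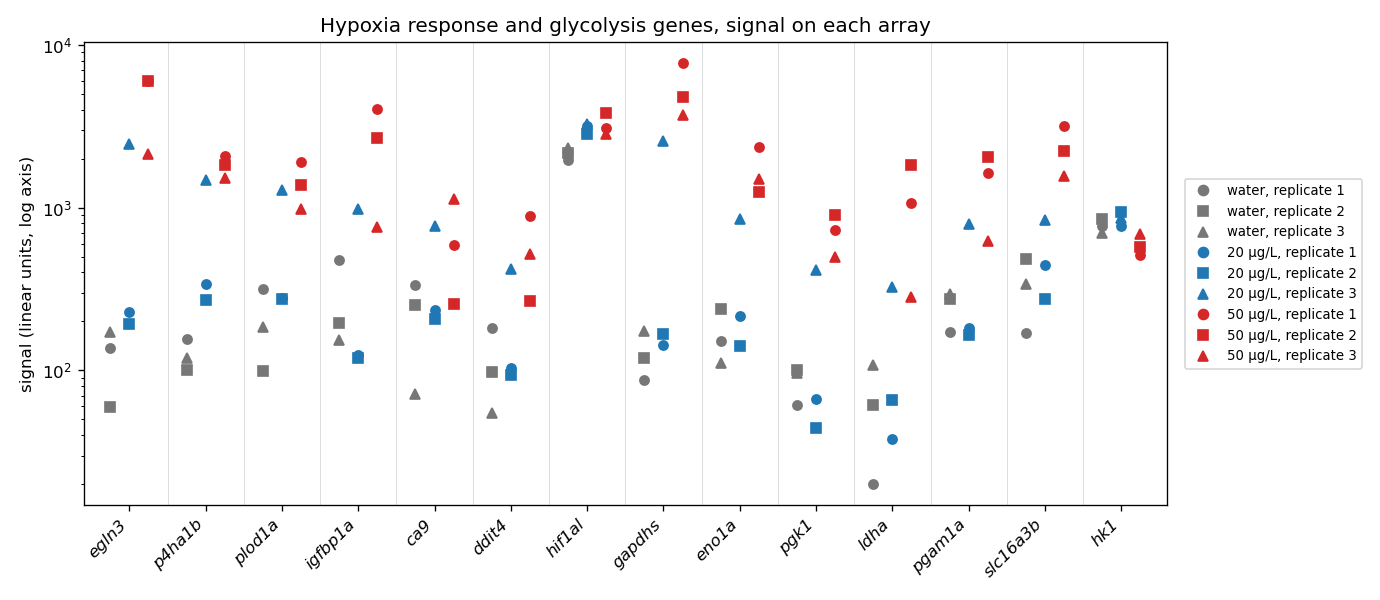
Signal on each of the 9 arrays (log axis) for hypoxia response genes (left 7) and glycolysis genes (right 7), in grey for water, blue for 20 µg/L and red for 50 µg/L. Circles, squares and triangles are replicates 1, 2 and 3. The blue triangle lies near the red points for egln3, p4ha1b and plod1a, while blue circles and squares lie near the grey points, and hif1al and hk1 show no such split.

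The list of oxidative phosphorylation, the respiratory chain and ATP synthase of mitochondria, had a lower median signal in each of the 3 exposed samples than in any water sample, though by little in replicates 1 and 2. The ATP synthase subunit gene atp5mf read 2909, 4029 and 4647 in water and 2001, 2272 and 1696 at 20 µg/L, a log2 difference of -0.94 (SE 0.26, limma adjusted p = 0.64). The groups did not overlap. For atp5pd, another ATP synthase subunit, signals were 2028, 1703 and 1910.1 and then 1229.8, 1133 and 1217 (log2 difference -0.65). The complex I subunit gene ndufa5 read 2051, 2113 and 2449 and then 1494, 1388 and 1242, and ndufs8a of the same complex read 1128, 956 and 1174 and then 752, 573 and 532. Both had every exposed array below every water array. Without water replicate 3 the differences of these 4 genes were -0.79, -0.64, -0.60 and -0.76. Without exposed replicate 3 they were -0.83, -0.67, -0.61 and -0.72.

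Of the 83 oxidative phosphorylation genes, 13 were lower and 0 higher at an unadjusted p under 0.05, beside 4.44% and 2.93% of all genes. After adjustment 0 passed. The exposed arrays were all below water for 18 genes and all above for 1, beside 7.99% and 4.37% of all genes. Without water replicate 3, 12 were lower, beside 3.95% of all genes in that fit. Without exposed replicate 3, 7 were lower (8.43%), beside 5.48% of all genes. Over the list the median was -0.33, beside -0.10 over all genes, and -0.21 and -0.23 without these arrays. The medians of the single exposed arrays relative to the water mean were -0.26, -0.19 and -0.50, and the water arrays lay at -0.16, -0.07 and 0.18. Over all genes the same medians were -0.13, -0.09 and 0.01 on the exposed arrays and -0.001, -0.03 and 0.09 on the water arrays. Set against these, exposed replicates 1 and 2 lay within the range of the water arrays and replicate 3 alone lay below it. At 50 µg/L the list median was -0.63, and 10 genes were called lower, beside 0.455% of all genes. Exposed replicate 3 was below replicates 1 and 2 for 8 of those 10, beside 28.6% of all probe sets.

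Cytosolic ribosomal protein genes did not move together in the 3 exposed samples. Relative to the water mean, the medians over 72 genes were -0.30, 0.11 and -0.46 on the exposed arrays and -0.07, -0.15 and 0.24 on the water arrays. Only rps27l was lower at an unadjusted p under 0.05 (2877, 4181 and 4273, then 2599, 2548 and 1996, log2 difference -0.65). Exposed replicate 3 was below all 5 other arrays for 47 of the 72 genes and above them for 0, beside 15.3% and 16.8% of all genes. The list median was -0.22 with all arrays and -0.10 without water replicate 3. Among 55 proteasome and ubiquitin genes, 5 were lower and 0 higher at an unadjusted p under 0.05, with psme2, an activator subunit, at 209.6, 488 and 419 and then 145, 193 and 156. The catalytic subunit gene psmb10 read 193, 278 and 389 and then 142, 189.7 and 136.

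Enzymes of central metabolism went both ways. Citrate synthase gene cs read 805, 973 and 504 in water and 1832, 2017 and 960.0 at 20 µg/L, with replicates 1 and 2 above all water arrays and replicate 3 within their range. The succinyl-CoA ligase gene suclg2 read 718, 1041 and 598 and then 1639, 1031 and 1557. The isocitrate dehydrogenase subunit gene idh3g was lower on all 3 exposed arrays (216, 226 and 278, then 89.5, 129 and 108, log2 difference -1.14), as was sdhc of succinate dehydrogenase (1298, 1452 and 1886, then 926, 1045 and 1188). Of the 32 genes of pyruvate dehydrogenase and the citric acid cycle, 2 were higher and 2 lower at an unadjusted p under 0.05. The gene prps1b, which makes phosphoribosyl pyrophosphate for nucleotide synthesis, read 1224, 2054 and 1490.3 and then 644, 558 and 834, a log2 difference of -1.21 (SE 0.28, limma adjusted p = 0.605). The mitochondrial folate enzyme gene mthfd2 read 787, 518 and 713 and then 315, 359 and 221 (-1.18, adjusted p = 0.64). All exposed arrays of prps1b and mthfd2 were below all water arrays, and without water replicate 3 their differences were -1.24 and -1.12. The proton carrier gene ucp2 read 9656, 10351 and 13283 and then 9086, 9382 and 5599, with replicate 3 well below the other arrays, and ucp3 was under the tag control level throughout.

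**Figure D3:**
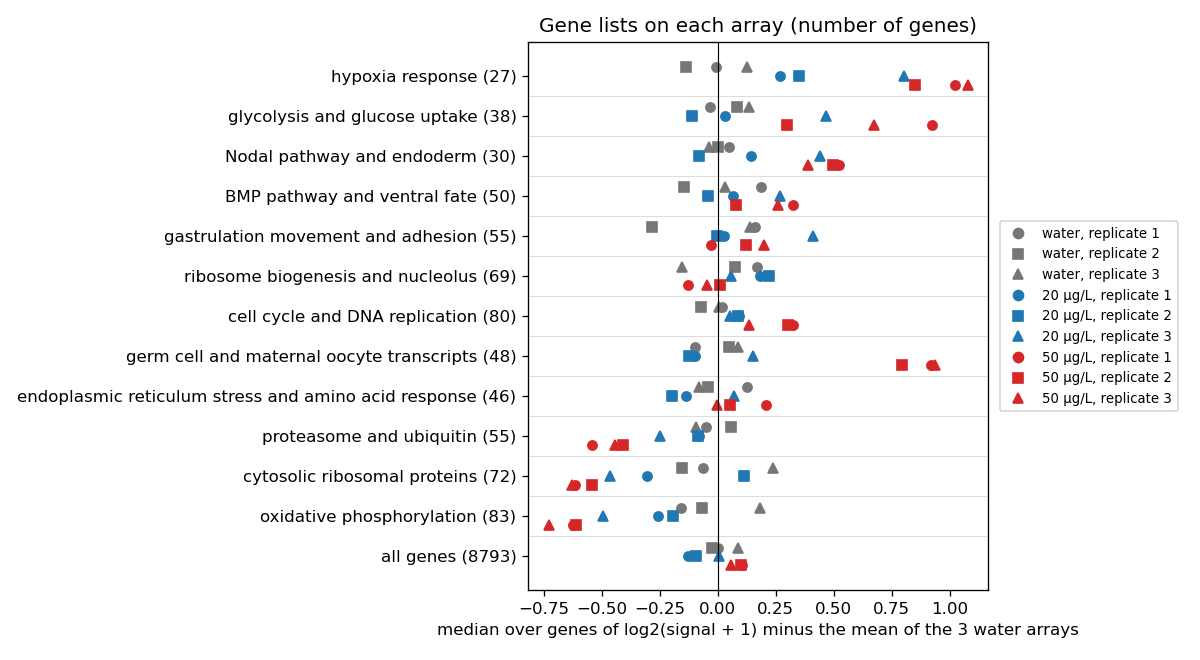
Median over the genes of a list of log2(signal + 1) minus the mean of the 3 water arrays, for each of the 9 arrays (grey water, blue 20 µg/L, red 50 µg/L), with all 8793 genes in the bottom row. Circles, squares and triangles are replicates 1, 2 and 3. For the hypoxia response the 3 blue points are all above the grey ones at 0.27, 0.35 and 0.80, for oxidative phosphorylation they are all below at -0.26, -0.19 and -0.50, and in both lists the blue triangle is the closest to the red points.

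Exposed replicate 3 also differed from replicates 1 and 2 for some genes outside these pathways. Over all genes it was above the 5 other arrays of both groups for 16.8% and below them for 15.3%. Such shares do not set it apart over the genes as a whole. Arrays numbered 3 were exported with 6 or 7 decimals and the others with 1, so what goes with that format cannot be told apart. Against water replicate 3 alone, list medians of exposed replicate 3 were 0.50 for hypoxia response and 0.46 for glycolysis, beside -0.11 over all genes. Those of replicates 1 and 2 against water replicates 1 and 2 were 0.29, -0.002 and -0.11. The 10 genes where exposed replicate 3 stood highest above the 5 other arrays, chosen by these values and given as a description, included egln3, gapdhs, p4ha1b, pgk1, plod1a and pfkfb3. For a probe set of ppp1r15a, which encodes a subunit of the phosphatase that restarts translation after stress, signals were 113, 125 and 40.3 in water, 122, 170.2 and 811 at 20 µg/L and 1076, 558 and 713 at 50 µg/L. The chaperone gene hsp90aa1.2 read 222, 163 and 34.8, then 73.6, 9.2 and 1695, then 415, 115 and 499, with replicate 3 above even the 50 µg/L arrays. The others were top2b and rsf1b.1, whose water arrays were all under the tag control level. Of the 10, 7 were called higher at 50 µg/L, beside 1.9% of all genes. Replicate 3 reached the range of the 50 µg/L arrays for 7 of the 10. The 10 were chosen for a high replicate 3 over the same water arrays, so neither count is independent evidence. Other probe sets of 5 of these genes put replicate 3 above the 5 other arrays in 6 of 8 cases. Of the 10 genes where replicate 3 stood lowest, 9 were under the tag control level on that array. At 50 µg/L, 0 of these 10 were called lower, beside 0.455% of all genes. The phosphate carrier gene slc25a3a read 108, 126 and 136 and then 83.4, 70.7 and 19.2. The remaining gene was hmga1a, of a chromatin protein, whose probe set read 2333, 10641 and 2234 and then 3535, 12300.0 and 912, with replicate 2 high in both groups. The brightest probe set of hmga1a did not set replicate 3 apart.

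A second group of genes had low signals in exposed replicates 1 and 2 and a water-like or higher signal in replicate 3. These genes were named after their values were seen. In a fit of the 6 arrays numbered 1 and 2, which the table gives with 1 decimal, 17 probe sets were called at 20 µg/L against water (0.11%), 2 higher and 15 lower. The copper transporter gene slc31a1 read 1890.0, 1552 and 949 in water and 307, 320.2 and 2950.5 at 20 µg/L, a log2 difference of -2.45 (limma adjusted p = 0.00488) in that fit and -1.08 with all arrays. Replicates 1 and 2 were far below water and replicate 3 was the highest of the 6. The cyclin-dependent kinase inhibitor gene cdkn1bb read 1504, 1599 and 1033 and then 384, 281 and 1025, with -2.24 in that fit (adjusted p = 0.00739) and -1.49 with all arrays (adjusted p = 0.64). The 14-3-3 protein gene ywhaqb read 4423, 4893 and 2815 and then 992, 899.6 and 3308. At 50 µg/L the signals of slc31a1 were 1720.1, 1577 and 2775, those of cdkn1bb 1386, 1556 and 1616 and those of ywhaqb 2450.4, 3739.9 and 3156, all close to or above the lowest water array.

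Further members were the transcription factor gene sall1a (477, 402 and 882, then 104, 63.1 and 905), the RNA-binding protein gene igf2bp3 (1044, 504 and 294, then 154, 118 and 1220.1) and the kinase gene mapkapk2a (3339, 3315 and 3569, then 1316, 1035 and 2828). The calcium pump gene atp2b4 read 272, 504 and 144 and then 54.5, 28.8 and 1241, and a second probe set of atp2b4 and one of igf2bp3 had the same order. Second probe sets of slc31a1, ywhaqb, cdkn1bb and mapkapk2a did not. That of slc31a1 read 3064, 3085 and 1205 in water and 1694, 3269 and 3274 at 20 µg/L. The calls of cdkn1bb and ywhaqb, and of 1 unnamed probe set, were also made in the fit of 8 arrays that left out only exposed replicate 3. The 2 probe sets called higher were of polr2a, described above, and of the ubiquitin-associated protein gene ubap2b (1302, 1241 and 3624, then 5676, 4891 and 1387). Exposed replicates 1 and 2 of ubap2b were the highest of the 6 arrays and replicate 3 lay within the water range.

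**Figure D4:**
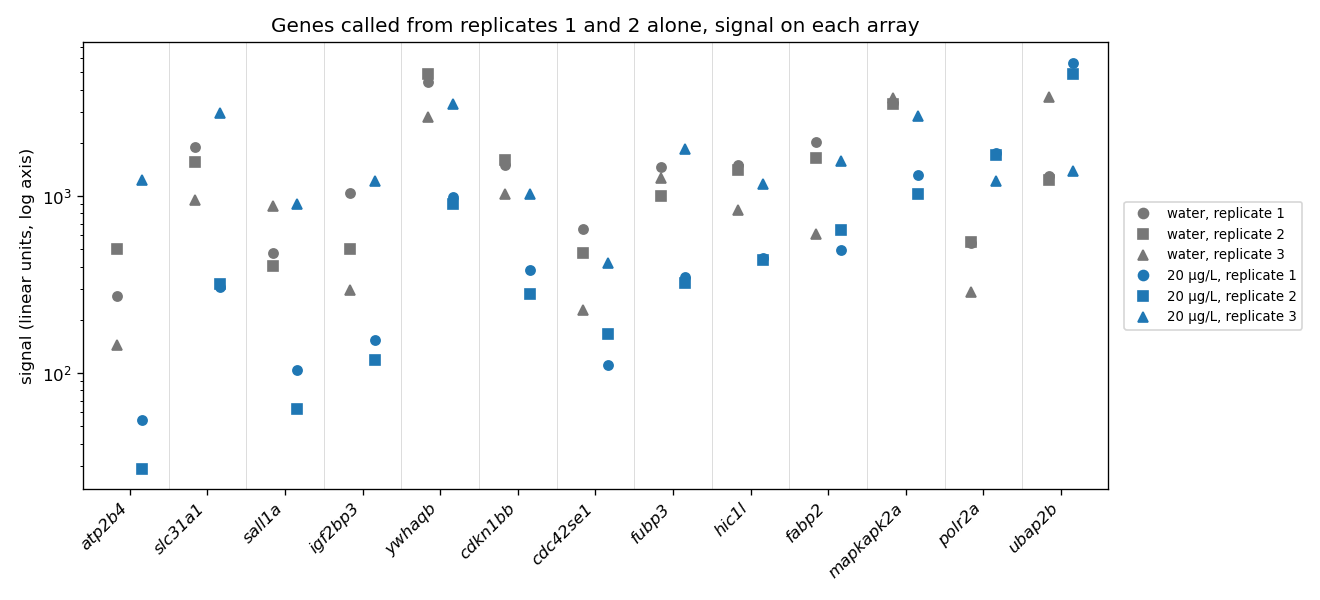
Signal on each array (log axis) for the 13 named genes called at 20 µg/L against water from the arrays numbered 1 and 2, with grey points for water and blue points for 20 µg/L. Circles, squares and triangles are replicates 1, 2 and 3. In the 11 genes from atp2b4 to mapkapk2a the blue circle and square lie below every grey point, except the square of fabp2, and the blue triangle lies among or above the grey points except for cdkn1bb and mapkapk2a.

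Signalling genes of the gastrula differed little at the level of lists. Among 50 genes of the BMP pathway and ventral fate, 5 were higher and 2 lower at an unadjusted p under 0.05. The shares of all genes were 2.93% and 4.44%. The ligand gene bmp4 read 214, 121 and 97.4 in water and 218, 333 and 691 at 20 µg/L (log2 difference 1.43, limma adjusted p = 0.64), with replicate 1 barely above water. Its antagonist gene chrd read 1814, 705 and 497 and then 2094, 1682 and 2096, where water replicate 1 overlapped the exposed arrays. The target gene id3 read 1053, 1143 and 451 and then 1309.6, 1584 and 1619. Without water replicate 3 the differences of bmp4, chrd and id3 were 1.19, 0.78 and 0.45. In that fit 2 genes of the list were higher, beside 3.25% of all genes. Of 30 genes of the Nodal pathway and endoderm, 2 were higher and 1 lower, beside the same shares of all genes. The Nodal antagonist gene lft1 was higher by a small, even step (512, 469 and 433, then 761, 652 and 775, log2 difference 0.63, adjusted p = 0.64). Exposed replicate 3 was above the 5 other arrays for 16 of these 30 genes and for 19 of the 50 BMP genes, beside 16.8% of all genes.

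Of 55 genes of gastrulation movement and adhesion, 6 were higher and 0 lower at an unadjusted p under 0.05. The shares of all genes were 2.93% and 4.44%. The transcription factor gene snai2, known for its role in cell motility, read 245, 408 and 338 and then 475, 492 and 771, with every exposed array above water and a log2 difference of 0.80 (adjusted p = 0.64). It was called higher at 50 µg/L (1387, 1585 and 1359.7). The small GTPase gene rhoab and the ligand gene wnt5b were also higher, and for both water replicate 3 was the lowest array, at 23.2 and 45.1. Without it the differences of rhoab and wnt5b went from 2.19 and 1.22 to 0.73 and 0.54. Without exposed replicate 3, 0 genes of the list were higher and 1 was lower, beside 2.15% and 5.48% of all genes. In the neural plate list of 68 genes, 5 were lower and 0 higher, beside 4.44% and 2.93% of all genes. The eye field gene rx3 read 278, 100.3 and 259 and then 62.9, 91.5 and 65.7, and gbx1, of the hindbrain region, read 1565, 1219.6 and 1756 and then 1039, 930.1 and 915 (log2 difference -0.64, adjusted p = 0.653). All exposed arrays of rx3 and gbx1 were below water, and the 50 µg/L arrays of gbx1 were lower still (402, 618 and 461).

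Of 48 transcripts supplied by the oocyte, 8 were called higher at 50 than at 20 µg/L. None of the 48 passed against water at 20 µg/L, and its median log2 difference was -0.09, beside -0.10 over all genes. At 50 µg/L the median was 0.85 and 12 genes were called higher than water, beside 1.9% of all genes. The difference between the doses was itself tested. Between 50 and 20 µg/L, 79 probe sets were called, 77 higher and 2 lower at the higher dose (0.497% and 0.0129% of probe sets), and over genes 60 were higher and 2 lower (0.682% and 0.0227%). The gene btg4, a factor in the clearance of maternal mRNA, read 106, 135 and 104 in water, 55.6, 63.3 and 129 at 20 µg/L and 3250.1, 3366 and 862 at 50 µg/L. All exposed arrays at 20 µg/L, replicate 3 included, were near or below water, and the log2 difference between the doses was 4.76 (SE 0.49, limma adjusted p = 0.00169).

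The oocyte kinase gene wee2 read 207, 148 and 387 at 20 µg/L and 2138, 1593 and 1308 at 50 µg/L (difference 2.85, adjusted p = 0.0074). Its 4 dimmer probe sets were also higher at 50 µg/L, by 2.01, 2.97, 2.51 and 2.49, but were not called between the doses. In the same order, they differed from water at 20 µg/L by 1.39, 1.48, 1.90 and -0.95. The brighter probe set differed from water by -0.05, so the probe sets of wee2 did not match at 20 µg/L. The claudin gene cldnd read 362, 325 and 671 and then 6374, 2598 and 2654 (3.04, adjusted p = 0.00582). The cyclin gene ccna1 read 406, 311 and 816 and then 4550.2, 3887 and 2379 (2.89, adjusted p = 0.0074). The maternal linker histone gene h1m read 879.5, 1299.6 and 2082 and then 11349, 5856 and 5745 (2.44, adjusted p = 0.0272). The zinc finger gene cth1 (2.56), the pluripotency factor gene nanog (2.33) and the histone mRNA binding protein gene slbp2 (3.00) completed the oocyte genes called between the doses. For btg4, wee2, cldnd, ccna1, cth1, h1m and nanog, exposed replicate 3 lay below all 50 µg/L arrays and was the highest of the 3 arrays at 20 µg/L. Of the 12 oocyte genes called higher at 50 µg/L, replicate 3 reached the 50 µg/L range for 0.

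Beyond that list, the endoderm factor gene mixl1 was higher at the higher dose (152, 180.0 and 309.7 at 20 µg/L, 1326, 1070.2 and 668 at 50 µg/L, difference 2.26, adjusted p = 0.0199) and the head gene otx2b was lower (973, 844 and 649, then 176, 299 and 232, -1.81, adjusted p = 0.0234). At 20 µg/L both lay within or near the water range (174, 219 and 103 for mixl1 and 962, 524 and 972 for otx2b). The lactate transporter gene slc16a3b (2.25), the chaperone gene hyou1 (1.61), birc5b of cell division (2.26) and the dim gene oxr1b (3.42) were also called between the doses. These calls rested on several single arrays. That of btg4 was kept without each of the 6 arrays. Those of ccna1, wee2, cth1, h1m, nanog, slbp2, mixl1, otx2b, slc16a3b and birc5b were each lost without 20 µg/L replicate 1 or 2 or 50 µg/L replicate 1 or 2, those of hyou1 and oxr1b also without 50 µg/L replicate 3, and that of cldnd without 20 µg/L replicate 1 or 2. All of them, btg4 included, were lost without the intensity trend in the fit, and those of birc5b, h1m, hyou1, mixl1, oxr1b, slbp2 and slc16a3b also with arrays centred on their medians. Those of birc5b, oxr1b, slbp2 and slc16a3b were lost with quantile normalization and with the replicate block too, that of slbp2 with the export format as a block, and that of oxr1b after flooring.

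**Figure D5:**
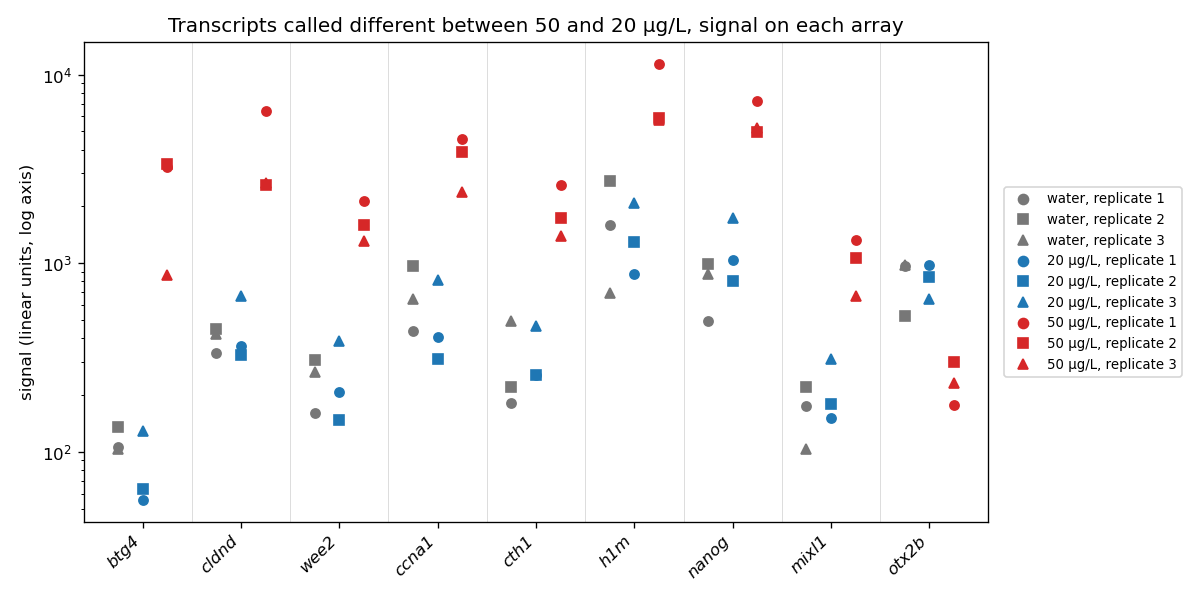
Signal on each of the 9 arrays (log axis) for 9 genes called different between 50 and 20 µg/L, in grey for water, blue for 20 µg/L and red for 50 µg/L. Circles, squares and triangles are replicates 1, 2 and 3. The 3 red points lie above all blue points for every gene but otx2b, where they lie below, and the blue points lie near the grey ones.

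A set of 40 genes named earlier at 50 µg/L was followed at the lower dose. These genes were chosen on the same water arrays, so their direction at 20 µg/L is no independent evidence. At 20 µg/L, 0 passed, and 8 were higher and 4 lower at an unadjusted p under 0.05. The median log2 difference was 0.12 at 20 µg/L and 1.98 at 50 µg/L, and on the exposed arrays singly it was -0.06, -0.10 and 0.70. Outside that set, the cyclin G gene ccng2, of the cell cycle list, read 166, 199.6 and 129 in water, 358, 342 and 1186 at 20 µg/L and 962, 856 and 874 at 50 µg/L. Its 20 µg/L arrays were all above water and its difference was 1.69 (SE 0.41, limma adjusted p = 0.605). It was called higher after flooring (adjusted p = 0.00817), but not without exposed replicate 3 (0.237). In the cell cycle list of 80 genes, 5 were higher and 0 lower, among them mki67 (2518, 1332 and 614, then 2382, 3596 and 3437) and the replication helicase gene mcm6 (321, 333 and 119, then 838, 288 and 686), both with overlap between the groups.

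No gene of the stress pathway lists passed after adjustment with values as deposited and all arrays. The shares of all genes to set beside their counts are again 2.93% higher and 4.44% lower. Of 42 genes of p53, growth arrest and apoptosis, 1 was higher and 5 lower (11.9%) at an unadjusted p under 0.05. The caspase regulator gene cflara had the largest difference (-3.51, adjusted p = 0.559) but was dim, at 62.7, 52.6 and 63.3 in water and 6, 3.7 and 3.5 at 20 µg/L. Of 46 genes of the response to endoplasmic reticulum stress or amino acid shortage, 2 were higher and 4 lower (8.7%). Signals of the chaperone gene dnajb11 were 304, 388 and 239.5 and then 177, 198 and 117, and those of hsp90b1 136, 308 and 162 and then 285, 422 and 389, while hspa5 overlapped (886, 1140.1 and 638, then 1023, 668 and 1117). Of 36 genes of oxidative stress and glutathione, 0 were higher and 0 lower, with a list median of -0.26 and a difference above 0 for 7 of the 36, beside 3635 of all 8793 genes. For 26 genes of the aryl hydrocarbon receptor and xenobiotic metabolism the counts were 0 and 0, and cyp1a, the usual reporter of that receptor, was near or under the tag control level (37.5, 65.4 and 41.7, then 27.1, 24.6 and 86.7). The receptor gene ahr2 was under the tag control level on all 9 arrays.

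Thyroid hormone signalling gave 0 genes higher and 2 lower of 17, and both, thrb and crym, were under the tag control level on all exposed arrays. The list median of -0.39 was 0.05 without water replicate 3. Among 42 genes of later differentiation, 0 were higher and 2 lower, with a median of -0.45 that became -0.17 without water replicate 3. Of 43 genes of the enveloping layer and epidermis, 1 was higher and 4 lower. The epidermal transcription factor gene grhl1 read 378, 489 and 504 in water and 196, 252 and 323 at 20 µg/L (log2 difference -0.85, adjusted p = 0.64). In the list of 37 yolk syncytial layer genes, 2 were lower. The apolipoprotein gene apoa2 read 454, 365 and 582 and then 201, 213 and 233 (log2 difference -1.09, adjusted p = 0.64), and the sulfate transporter gene slc26a1 read 587, 811 and 594 and then 268, 374 and 571. Exposed arrays were all below water for both. No gene of these lists passed after adjustment.

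In the remaining lists, few genes differed and none passed after adjustment. Of 46 genes of the FGF, Wnt and retinoic acid pathways, 0 were higher and 3 lower at an unadjusted p under 0.05. One of the 3 was spry4, a feedback inhibitor of FGF signalling, which read 883, 528 and 673 in water and 204, 117 and 919.6 at 20 µg/L, with replicates 1 and 2 low and replicate 3 the highest of the 6. Of 35 genes of the dorsal organizer, chrd was higher and admp, a BMP-type ligand of the organizer, was lower (2545, 3505 and 4406, then 2407, 1214 and 2866). Of 37 genes of paraxial mesoderm, sall4 and the caudal-type homeobox gene cdx1a were higher (69.7, 104 and 67.3, then 117, 174 and 167), both without overlap. Of 39 genes of zygotic genome activation, the RNA-binding protein gene hnrnpa1b (11687, 10284 and 8918, then 16857, 23830.0 and 15442) and the stress gene gadd45ba (613, 537 and 433, then 874, 764 and 765) were higher and isg15 lower. Every exposed array of hnrnpa1b and gadd45ba was above every water array. In the immediate early list of 34 genes, gadd45ba was higher and atf3, which is dim here, lower.

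Among 42 heat shock and chaperone genes, 1 was lower, the mitochondrial chaperonin gene hspe1 (6068, 6458 and 5231, then 3954, 4204 and 4366, log2 difference -0.50, limma adjusted p = 0.665), with no overlap. Of 22 genes of mitochondrial uncoupling and biogenesis, gabpa, a transcription factor of nuclear genes for mitochondrial proteins, was higher (1137, 1636 and 737, then 2512, 1945 and 1825), and hspe1 and prkag1 were lower. The mitochondrial DNA packaging gene tfam read 602, 650.1 and 116 and then 466, 561 and 716, so that water replicate 3 alone stood low. Of 7 pentose phosphate genes, prps1b and the epimerase gene rpe (1715, 1789 and 1738, then 1214, 1396 and 1177) were lower and 0 higher. Counts were 0 higher and 2 lower of 27 for cholesterol and lipid synthesis, and 0 higher and 1 lower of 37 for the Notch pathway. In the oocyte list, the germ cell helicase gene ddx4, the RNA-binding protein gene celf1 and the histone chaperone gene npm2b were higher at an unadjusted p under 0.05, and 0 were without water replicate 3. The percentages of all genes to set beside these counts are the 2.93% and 4.44% given above, and 3.25% for those higher without water replicate 3.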

How the data were processed

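Whole-embryo RNA was hybridised to 1-colour Affymetrix zebrafish arrays, 1 array per sample. The authors deposited 1 table of signal intensities on a linear scale, made with GCOS and its MAS5 algorithm per the submitters' processing notes, whose versions are not stated in the sources at hand. From the values, each array was scaled to nearly the same 2% trimmed mean, and arrays numbered 3 carry more decimals than the others. Scanner files were not used here, so background correction could not be varied. Of 15617 probe sets, 115 manufacturer's controls were left out and 15502 were fitted. GEO's platform annotation, with symbols updated by gene ID, gave 1 gene to 10802 probe sets, several to 135 and none to 4680. The 10802 stood for 8793 genes, and the brightest probe set over all arrays represented a gene in the lists. Array number limits the precision.

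Values entered as log2(signal + 1). limma 3.58.1 in R 4.3.3 fitted group means over all 9 arrays with an intensity trend in eBayes, and p-values were adjusted by Benjamini-Hochberg over all probe sets with a threshold of 0.05. The tag control level of an array is the 95th percentile of 17 tag control probe sets. The fit was tested on simulated data. Genes were named by rule: the 15 largest differences each way without overlap between the groups and above the tag control level in the higher group, the 10 largest gaps each way of exposed replicate 3, up to 4 genes of smallest p per list with defining members, and genes fixed by name. Further examples outside this rule, such as pgam1a, ddit4, nol10, id3 and wnt5b in their pathways and birc5b and hyou1 in the dose comparison, were chosen after their values were seen. The comparison, the members and the lists were chosen with earlier results of these data known.

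Alternatives were other filters, offsets, normalizations, variance models, array weights, blocks, subsets of arrays, and flooring of dim values at the tag control level. Flooring together with leaving out water replicate 3 or exposed replicate 3 was added after seeing the data. The replicate number was checked as a pairing: correlations of deviations from group means between same-numbered exposed and water arrays were -0.02, -0.02 and -0.06. The main fit used no pairing. Arrays numbered 3 also share an export format. The check cannot show whether same-numbered arrays share a clutch or a run, which the labels do not give.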

Additional observations from a re-analysis of the deposited data

How the results depend on the processing

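For 20 µg/L against water, limma called 0 probe sets under the other filters, offsets, normalizations, weights, blocks and variance models. The replicate block gave 0 calls (1141 at an unadjusted p under 0.05). The exceptions were 60 calls with values under the tag control level set to it (flooring) and 17 from the arrays exported with 1 decimal. Leaving out 1 array gave 0 to 3 calls, with 3 without 20 µg/L replicate 3, 1 without water replicate 2 and 0 otherwise. After flooring, 40 were called without water replicate 3 and 134 without 20 µg/L replicate 3, 2 settings chosen after seeing the data.

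For 50 against 20 µg/L (79 calls), the count was 129 after dropping the dimmest 40%, 287 with only the 6 arrays compared, 131 and 170 with offsets of 16 and 32, 46 after quantile normalization and 14 after median centring. It was 553 after flooring, 788 from arrays exported with 1 decimal, 749 with array weights, 0 without the intensity trend (1911 at an unadjusted p under 0.05) and 140 with robust eBayes. Leaving out 1 array gave 1 to 305 calls, with the lowest counts without replicates 1 or 2 of either dose. The replicate block gave 53, and correlations of same-numbered arrays of the 2 doses were -0.03, -0.01 and 0.05. The cause of these moves was not tested.

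Under each alternative, 124 gene differences at 20 µg/L against water were recomputed. They came from the naming rule, leaving out genes named only for a small p in their list. Of the values so obtained, 2375 kept their side of the threshold without counting as reversed, and 11 passed it, all after flooring. The difference of tfam reversed from 0.68 to -0.29 with only the arrays exported with 1 decimal. Some genes left out of this count also passed. Without flooring, cdkn1bb had a limma adjusted p of 0.00739 from the arrays exported with 1 decimal. Its limma adjusted p was 0.0497 without 20 µg/L replicate 3. After flooring, mphosph10, rrp15, ccng2 and mki67 passed with all arrays. A change of sign counted as reversed where the difference exceeded its standard error in both fits. Other changes of sign are among the 2375, such as that of pgk1 from 0.35 to -0.62 without 20 µg/L replicate 3. For the medians of 35 lists, 664 of the recomputed values moved by no more than a set spread and 35 by more. That spread was the standard deviation of the list median over the 3 exposed arrays. A departure of exposed replicate 3 therefore widened it. The fall of the hypoxia response median from 0.47 to 0.05 without that array counted as within the spread. On an array, 53.2% to 70.0% of probe sets were above the tag control level, and the level of the others there is only a bound.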
